A study of Mus musculus with 12 samples.

Results

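The read counts of 10 chemokine genes were followed in mouse neutrophils. Of these genes 5 are of the CXC family (Cxcl1, Cxcl2, Cxcl3, Cxcl10 and Cxcl16) and 5 of the CC family (Ccl2, Ccl3, Ccl4, Ccl6 and Ccl9). They were found among the 48709 genes of the deposited table by matching each Ensembl identifier to its symbol in the GRCm38 annotation. The study sorted neutrophils as Ly6Ghi Ly6Cint CD11b+ CD45+ cells, after enrichment on anti-Ly6G beads, from C57BL/6N males aged 8 to 10 weeks. Liver neutrophils came from mice given 1 intraperitoneal injection of carbon tetrachloride (CCl4, 1 mL/kg in corn oil) and were collected 24 hours (n = 4) or 72 hours (n = 5) later. Control neutrophils came from the spleen of untreated mice (n = 3). No group was given corn oil alone and no neutrophils of uninjured liver were included, so the effects of organ and of injury cannot be told apart. Labels do not say whether each library came from 1 mouse or from a pool, and p-values measure the spread between these libraries. Between the gene counts of spleen libraries 1 and 2 the chi-square per degree of freedom was 2.47. It was 37.5 and 41.3 for each of them with spleen library 3. The lowest value of any other pair within a group was 6.72 (72-hour libraries 4 and 5). Whether the 3 controls are independent of each other was not tested.

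Chemokines are small secreted proteins that draw leukocytes along a gradient through receptors on the cell surface. CXC chemokines with an ELR motif, here Cxcl1, Cxcl2 and Cxcl3, act through Cxcr2 and are known for the recruitment of neutrophils, whereas Cxcl10 acts through Cxcr3 on T cells and Cxcl16 through Cxcr6. Among the CC chemokines, Ccl3 and its close relative Ccl4 attract monocytes and lymphocytes, with Ccr1 among the receptors of Ccl3, Ccl2 binds Ccr2 on monocytes, and Ccl6 and Ccl9 are rodent ligands of Ccr1. In the injured liver, CCl4 is converted by hepatocytes to a radical that kills the cells around the central veins, and neutrophils, followed by monocytes, enter the tissue.

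The genes of the 3 ELR chemokines lie on the plus strand of mouse chromosome 5, with Cxcl3 at chr5:90786103-90789600, Cxcl1 at chr5:90891241-90893115 and Cxcl2 at chr5:90903871-90905938 (GRCm38). Cxcl10 lies on the minus strand of the same chromosome at chr5:92346638-92348889. The CC members lie on chromosome 11, where Ccl9 (chr11:83572919-83578636), Ccl6 (chr11:83587882-83593087), Ccl3 (chr11:83647844-83649355) and Ccl4 (chr11:83662584-83664683) follow each other, the first 3 on the minus and Ccl4 on the plus strand. Ccl2 stands apart at chr11:82035571-82037453 on the plus strand. Cxcl16 is also on chromosome 11, on the minus strand at chr11:70453983-70459984. All 10 are protein-coding.

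The 250 bases before the RefSeq start site are shown for the 3 ELR chemokines and, as a CC member with high counts in the liver, for Ccl3 (RefSeq, GRCm38.p6). They show what the 3 ELR promoters share in sequence. Capitals mark GGGAATTTCCC, which is the longest run of letters (11) common to those 3 promoters and a form of the sequence that NF-kB proteins are known to bind. It was searched on both strands.
Cxcl1, chr5:90890995-90891244, plus strand: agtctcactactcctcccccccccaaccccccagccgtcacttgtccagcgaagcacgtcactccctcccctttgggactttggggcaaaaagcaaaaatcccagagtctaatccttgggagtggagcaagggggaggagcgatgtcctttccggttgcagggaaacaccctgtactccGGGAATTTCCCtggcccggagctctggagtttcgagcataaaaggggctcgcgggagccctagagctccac
Cxcl2, chr5:90903649-90903898, plus strand: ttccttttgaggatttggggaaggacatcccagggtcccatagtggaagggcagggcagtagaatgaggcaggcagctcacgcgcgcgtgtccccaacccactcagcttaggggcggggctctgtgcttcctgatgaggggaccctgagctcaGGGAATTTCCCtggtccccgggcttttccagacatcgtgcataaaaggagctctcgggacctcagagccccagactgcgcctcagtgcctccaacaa
Cxcl3, chr5:90785851-90786100, plus strand: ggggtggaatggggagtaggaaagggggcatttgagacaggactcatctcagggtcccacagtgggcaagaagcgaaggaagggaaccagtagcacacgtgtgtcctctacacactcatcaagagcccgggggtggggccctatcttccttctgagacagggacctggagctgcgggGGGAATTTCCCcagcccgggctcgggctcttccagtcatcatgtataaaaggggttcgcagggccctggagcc
Ccl3, chr11:83649379-83649628, minus strand: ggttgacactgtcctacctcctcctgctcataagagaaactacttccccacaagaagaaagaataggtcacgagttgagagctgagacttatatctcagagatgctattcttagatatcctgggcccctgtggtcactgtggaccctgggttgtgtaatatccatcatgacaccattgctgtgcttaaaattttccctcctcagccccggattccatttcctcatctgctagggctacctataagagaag
This run began 71 bases before the start of Cxcl1, 97 before that of Cxcl2 and 73 before that of Cxcl3, each on the gene's own strand. Of 32851 promoters of the same length, 14 (0.0426%) held it, these 3 included. Of the 10 members 7 had a promoter sequence in the table used (Cxcl1, Cxcl2, Cxcl3, Cxcl10, Ccl3, Ccl6 and Ccl9), and the run was in the 3 that defined it and in none of the other 4. A match describes the letters of the window and is not evidence of binding.

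The 12 libraries held between 1267089 and 3017403 counts on genes. These were 2.71% to 3.18% of the uniquely aligned reads, and the remainder lay almost entirely on no gene. The kit was stranded, and the strand option given to the counter is not given in the sources used here. In 376 of 466 pairs (80.7%) of a coding gene and a non-coding gene sharing at least 200 exon bases on opposite strands, the non-coding gene had more counts, and each of the 20 genes at the top of the table by count shared exon bases with a gene on the other strand. Of the 12488 genes tested below, 7485 were annotated as sharing none. Whether reads were counted on the strand of the gene or on the opposite strand could not be settled for any member. A chemokine's count may therefore come from reads on the other strand, or hold only part of the gene's reads, and levels in one library are not a measure of transcript number. Of the members, Cxcl10 shares 133 exon bases with Art3 on the other strand and Cxcl16 shares 552 with Zmynd15. The other 8 members share none. Libraries 2 and 3 of the 72-hour group had 1.91% and 1.98% of unaligned reads, against 49.6% to 50.7% in the other 10 libraries, and were the deepest of the liver libraries. Levels are given as counts and as normalized CPM (counts scaled to a common library size after TMM normalization).

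Relative to control spleen, the counts of Cxcl1, Cxcl2, Cxcl3, Ccl3 and Ccl4 were higher in liver neutrophils at 24 hours. At 72 hours the counts of these 5 and of Cxcl10 were higher. The largest fitted fold change was that of Cxcl2, a value that depends on the prior count since Cxcl2 was at the detection floor in spleen. It reached 65.3 to 653 normalized CPM in the liver. Ccl3 already had counts in spleen, and its mean was 75.5 normalized CPM there and 837 and 785 in the liver. No member was called lower in either comparison, and none was called between 24 and 72 hours. A gene was called at an edgeR adjusted p below 0.05 with a log2 fold change of at least 0.5 in either direction. In bulk RNA, more cells that express a gene and more RNA per cell cannot be told apart.

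**Figure D1:**
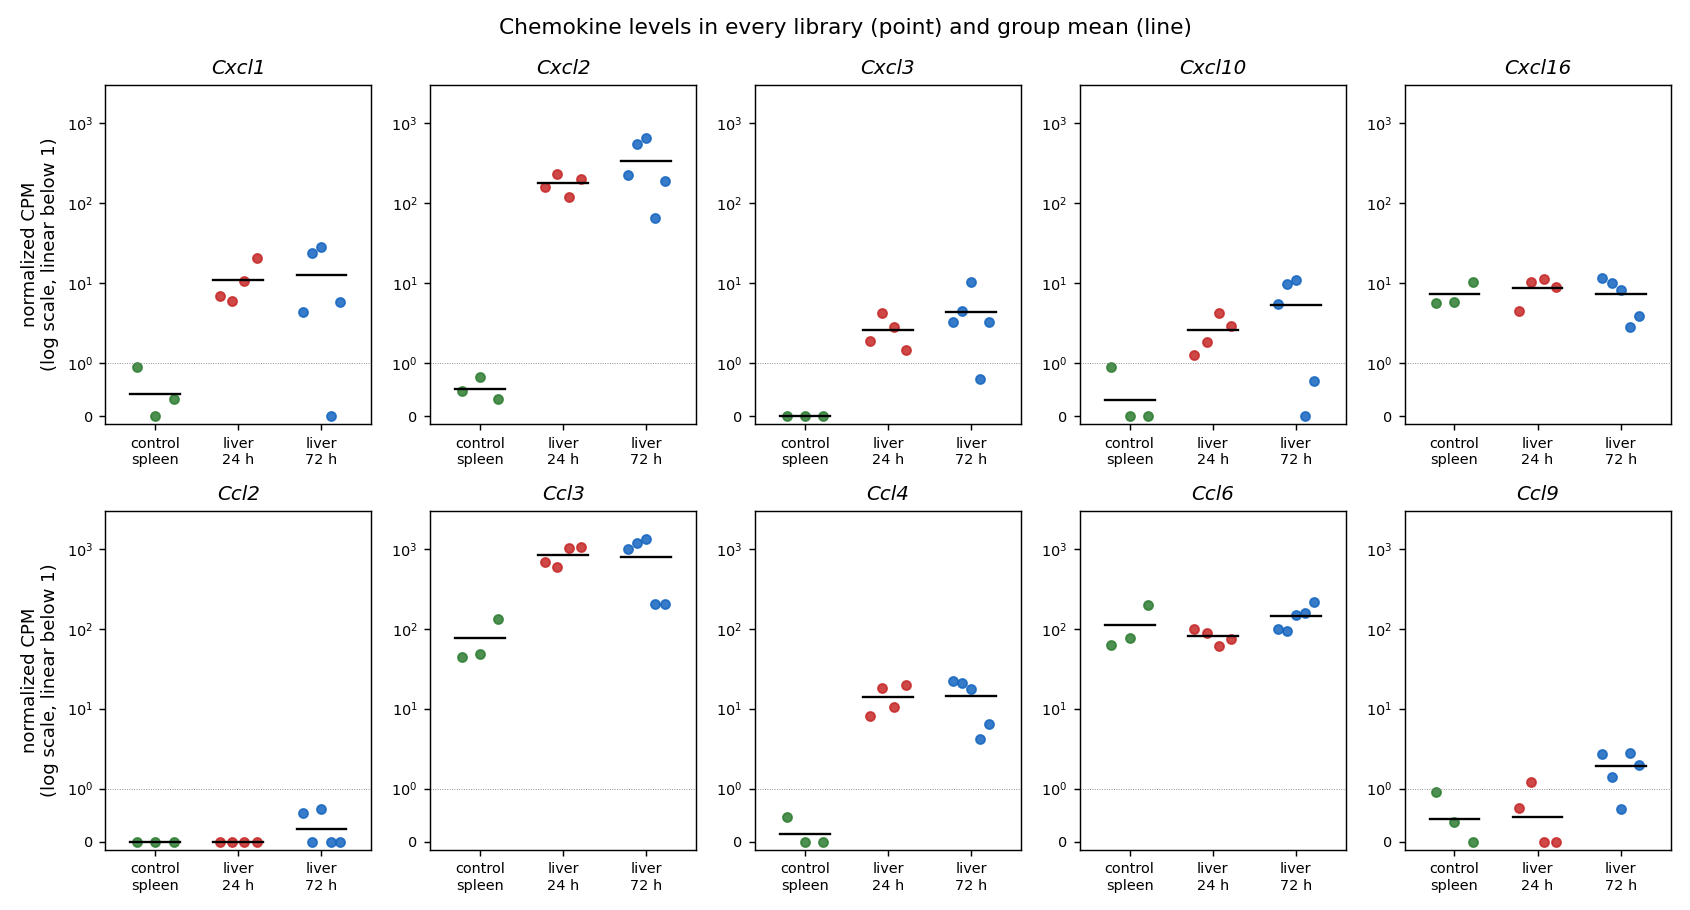
Normalized CPM (vertical axis, log scale above 1 and linear below) of the 10 chemokines in each library (points) and the mean of each group (black line), for control spleen (n = 3), 24-hour liver (n = 4) and 72-hour liver (n = 5). Cxcl2 lies below 1 in all 3 spleen libraries and between 65.3 and 653 in the 9 liver libraries, whereas the Cxcl16 libraries of the 3 groups overlap.

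Of the 10 members 9 passed the filter on low counts (over 1 CPM in at least 3 libraries) and were tested. Ccl2 did not pass. Cxcl1, Cxcl2, Cxcl3, Cxcl10, Ccl4 and Ccl9 had at most 2 counts in every spleen library and passed mainly through their liver libraries, so that the number of calls among those tested is a description. At 24 hours 5 of the 10 members were called higher (3 CXC and 2 CC) and 0 lower, where 5.35% of the 12488 genes tested were called higher and 4.4% lower. At 72 hours 6 of the 10 were called higher (4 CXC and 2 CC) and 0 lower, where 2.63% of all genes tested were called higher and 2.71% lower. The comparison of 72 with 24 hours gave 0 calls among the members by edgeR, where 1.65% of all genes tested were called higher and 2.84% lower. At an unadjusted p under 0.05 the last comparison held 2 members, Cxcl2 and Ccl6, and the DESeq2 Wald test and limma-voom also gave 0 calls. The median log2 fold change of all genes tested was -0.23 at 24 hours, -0.02 at 72 hours and 0.18 between the times. On leaving out 1 library the number of all genes called in either direction went from 1218 to between 595 (without spleen library 1) and 1314 at 24 hours, from 666 to between 339 (without spleen library 2) and 841 at 72 hours, and from 561 to between 178 (without 24-hour library 1) and 775 between the times, so the shares of all genes above move by over 1.5 times. Both comparisons with spleen use the same 3 control libraries.

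Among the ELR chemokines, Cxcl2 had 1, 2 and 1 counts in the 3 spleen libraries. In the 24-hour libraries it had 249, 387, 166 and 273 counts, or 157, 232, 117 and 199 normalized CPM. In the 72-hour libraries it had 410, 1574, 2110, 94 and 293 counts, or 222, 544, 653, 65.3 and 190 normalized CPM. Every liver library lay above every spleen library. Within the 72-hour group libraries 2 and 3 were the highest and library 4 was the lowest, and its value fell below all 24-hour values. The mean level was 0.503 ± 0.205 normalized CPM (SD, n = 3) in spleen, 176 ± 49.9 (n = 4) at 24 hours and 335 ± 251 (n = 5) at 72 hours. Against 3 counts in the shallowest spleen library, which is 1.39 normalized CPM, the lower bound of the fold for the group mean was 127 at 24 hours and 241 at 72 hours. The ratio of pooled counts was 357 at 24 hours, with an exact 95% interval of 139 to 1313, and 821 at 72 hours, with an interval of 320 to 3014. These intervals cover counting error only. Pooled counts weight each library by its depth, so 72-hour libraries 2 and 3 weigh most in each 72-hour ratio. The fitted log2 fold change was 8.30 at 24 hours (SE 0.80, edgeR adjusted p = 9.19e-07) and 9.23 at 72 hours (SE 0.81, edgeR adjusted p = 2.49e-07). For genes at the floor such a fitted value, together with its SE, depends on the prior count and is not a bound.

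Cxcl1, the mouse chemokine also called KC, had 2, 0 and 1 counts in spleen. It had 11, 10, 15 and 28 counts at 24 hours and 8, 68, 92, 0 and 9 at 72 hours. All 24-hour libraries lay above all spleen libraries, while 4 of 5 did so at 72 hours, where library 4 had no count. In normalized CPM the 24-hour level was 10.99 ± 6.596 (SD, n = 4) and the 72-hour level 12.4 ± 12.7 (n = 5). Against 3 counts in the shallowest spleen library, the lower bound of the fold was 7.90 at 24 hours and 8.93 at 72 hours. The ratio of pooled counts to spleen was 28.4 at 24 hours (exact 95% interval 9.28 to 141) and 43.2 at 72 hours (14.6 to 212). Cxcl1 was called higher at both times, with a log2 fold change of 4.64 (SE 1.12, edgeR adjusted p = 0.0105) and of 4.90 (SE 1.09, edgeR adjusted p = 0.00707). Without spleen library 2 both calls were lost, with log2 fold changes of 4.09 (edgeR adjusted p = 0.0558) and 4.35 (edgeR adjusted p = 0.0542). Without 72-hour libraries 2 and 3 the 72-hour value was 2.97 and was not called (edgeR adjusted p = 0.184).

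Cxcl3 had no count in any spleen library. It had 3, 7, 4 and 2 counts at 24 hours and 6, 13, 33, 1 and 5 counts at 72 hours. All 9 liver libraries held at least 1 count, and library 3 of the 72-hour group held the most. Set against 3 counts in the shallowest spleen library (1.39 normalized CPM), the lower bound of the fold for the group mean of Cxcl3 was 1.86 in the 24-hour liver. In the 72-hour liver this bound was 3.15, although library 4 by itself, at 0.695 normalized CPM, lay below that floor. It was called higher at both times (edgeR adjusted p = 0.0133 and 0.00397). The fitted log2 fold changes were 5.48 and 6.28. The 24-hour call was lost without spleen library 2, where the value was 5.44 (edgeR adjusted p = 0.0526), and the 72-hour call without 72-hour libraries 2 and 3, where it was 5.24 (edgeR adjusted p = 0.0576). Cxcl2 and Cxcl3 share 69 stretches of 100 bases, out of 2259 in the transcripts of Cxcl2 and 3672 in those of Cxcl3, so reads from these stretches cannot be told apart between them. Cxcl1 shares no such stretch with another gene.

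Cxcl10, an interferon-inducible chemokine, had 2, 0 and 0 counts in spleen. It had 2, 3, 6 and 4 counts at 24 hours and 10, 28, 35, 0 and 1 at 72 hours. The first 3 libraries at 72 hours lay above all 24-hour libraries, and libraries 4 and 5 lay below them. Against 3 counts in the shallowest spleen library, the lower bound of the fold was 1.84 at 24 hours and 3.82 at 72 hours. By themselves, 24-hour library 1 (1.26 normalized CPM) and 72-hour libraries 4 and 5 (0 and 0.649) lay below that floor of 1.39. At 24 hours Cxcl10 was not called (log2 fold change 3.01, 95% interval 0.37 to 5.65, edgeR adjusted p = 0.137). At 72 hours it was called higher (log2 fold change 4.15, SE 1.17, edgeR adjusted p = 0.0390), with a ratio of pooled counts to spleen of 27.1 (exact 95% interval 7.25 to 228). This call was lost on leaving out any 1 of 5 libraries, namely spleen libraries 2 and 3 and 72-hour libraries 1, 2 and 3, with an edgeR adjusted p of up to 0.191, and without 72-hour libraries 2 and 3 together the edgeR adjusted p was 0.451. Art3, an ecto-ADP-ribosyltransferase gene on the other strand, had 49, 59 and 94 counts in spleen, 205, 226, 336 and 335 at 24 hours and 227, 357, 535, 27 and 39 at 72 hours. Like Cxcl10 it was low in libraries 4 and 5 of the 72-hour group. Art3 was called higher both at 24 hours, by 2.91 on the log2 scale (edgeR adjusted p = 0.00165), and at 72 hours, by 1.89 (edgeR adjusted p = 0.0313). Which of these reads belong to which gene cannot be told apart from the counts.

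Cxcl16, which is made as a membrane-bound protein and also binds oxidized lipids, was the CXC member with the highest counts in spleen and did not differ detectably between the groups. It had 12, 16 and 32 counts in spleen, 7 to 17 counts at 24 hours and 4 to 29 counts at 72 hours. The normalized CPM overlapped between all 3 groups, with means of 7.22 ± 2.66 (SD, n = 3), 8.67 ± 3.02 (n = 4) and 7.22 ± 3.76 (n = 5). The log2 fold change was 0.25 at 24 hours (95% interval -0.82 to 1.32, edgeR adjusted p = 0.802) and 0.03 at 72 hours (-0.98 to 1.03, edgeR adjusted p = 0.993). Its opposite-strand neighbour Zmynd15 had 2 to 3 counts in spleen, 1 to 13 at 24 hours and 5 to 33 at 72 hours, and was called higher at 72 hours (log2 fold change 2.61, edgeR adjusted p = 0.0399). The part of overlapping reads in the Cxcl16 values was not tested.

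Of the CC members, Ccl3, also known as MIP-1 alpha, had 96, 133 and 416 counts in spleen, or 44.5, 48.2 and 134 normalized CPM. It reached 682, 592, 1023 and 1051 normalized CPM in the 24-hour libraries. At 72 hours the values were 991, 1181, 1342, 206 and 204 normalized CPM. Every liver library lay above every spleen library, but libraries 4 and 5 at 72 hours lay below all 24-hour libraries and libraries 2 and 3 above them. The log2 fold change was 3.46 at 24 hours (SE 0.58, edgeR adjusted p = 5.14e-04) and 3.37 at 72 hours (SE 0.57, edgeR adjusted p = 6.28e-04). Without 72-hour libraries 2 and 3, the 72-hour value was 2.62 (edgeR adjusted p = 0.00306). Without spleen library 3, the highest of its group, the values were 4.17 and 4.08 (edgeR adjusted p = 2.26e-04 and 2.41e-04).

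Ccl4, or MIP-1 beta, the neighbour of Ccl3 on the other strand, was present at much lower counts. It had 1, 0 and 0 counts in spleen, 13, 30, 15 and 27 at 24 hours and 41, 60, 57, 6 and 10 at 72 hours. All liver libraries lay above all spleen libraries, and libraries 4 and 5 were again the lowest at 72 hours, at 4.17 and 6.49 normalized CPM against 17.6 to 22.2 in the other 3. The lower bound of the fold was 10.1 at 24 hours and 10.2 at 72 hours. With 1 count in spleen, the ratio of pooled counts was 113 at 24 hours (exact 95% interval 19.7 to 4514) and 128 at 72 hours (22.6 to 5065). Ccl4 was called higher at both times (log2 fold change 6.25, edgeR adjusted p = 1.40e-04, and 6.29, edgeR adjusted p = 1.04e-04).

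Ccl6, which is known to be made by myeloid cells at rest, differed from Ccl3 and Ccl4. Its values were 62.6, 76.8 and 199 normalized CPM in spleen, 98.4, 88.8, 60.1 and 75.1 at 24 hours and 99.8, 94.6, 149, 158 and 216 at 72 hours. Spleen library 3 was the highest of its group and overlapped the 72-hour libraries, and at 72 hours libraries 4 and 5, which were lowest for Ccl3, were the highest for Ccl6. The log2 fold change against spleen was -0.49 at 24 hours (95% interval -1.21 to 0.24, edgeR adjusted p = 0.398) and 0.34 at 72 hours (-0.35 to 1.03, edgeR adjusted p = 0.701). Without spleen library 3 the 24-hour value was 0.21. Between the times it was 0.83 higher on the log2 scale at 72 hours (95% interval 0.18 to 1.48), which did not pass the adjustment (edgeR adjusted p = 0.133). At 72 hours 4 of 5 libraries lay above all 24-hour libraries. E230016K23Rik, which spans Ccl6 on the other strand without shared exon bases and was added after its values were seen, had 132, 175 and 845 counts in spleen, where library 3 was the highest as for Ccl6.

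Ccl9 and Ccl2 were close to the limit of detection. Ccl9 had 2, 1 and 0 counts in spleen, 1, 2, 0 and 0 at 24 hours and 5, 4, 2, 4 and 3 at 72 hours. Spleen and 24-hour liver were both at the floor and no fold is given between them. At 72 hours the ratio of pooled counts to spleen was 4.40 (exact 95% interval 1.28 to 23.3) and the lower bound of the fold 1.36, and Ccl9 was not called (edgeR adjusted p = 0.399). Ccl2, the main chemoattractant of monocytes, was at 0 in all spleen and 24-hour libraries and had 1, 0, 2, 0 and 0 counts at 72 hours. All 3 groups were at the floor, which in the liver libraries corresponds to 0.929 to 2.19 normalized CPM for 3 counts.

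**Figure D2:**
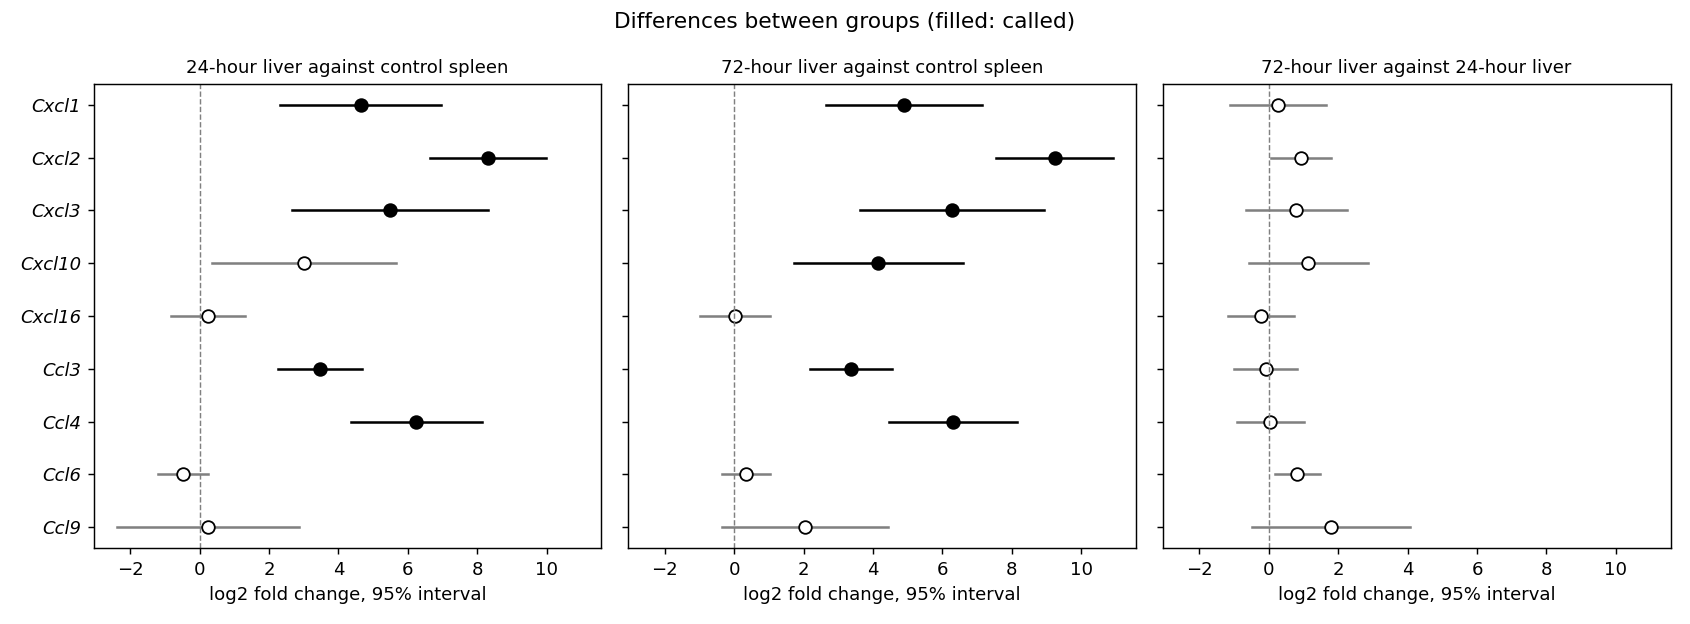
Log2 fold change (horizontal axis) with its 95% interval for the 9 members tested, in the 3 comparisons, from edgeR. Filled points passed the test. Those against spleen include Cxcl2 at 8.30 and 9.23, and all 9 points are open in the comparison of 72 with 24 hours.

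In the comparison of the times the intervals left room for sizeable differences. For Cxcl2 the log2 fold change from 24 to 72 hours was 0.93 (95% interval 0.07 to 1.79, edgeR adjusted p = 0.200). For Ccl3 it was -0.09 (-1.005 to 0.823, edgeR adjusted p = 0.934) and for Ccl4 0.05 (-0.914 to 1.004, edgeR adjusted p = 0.971). The value of Cxcl1 was 0.26 (-1.12 to 1.64), that of Cxcl3 0.79 (-0.66 to 2.25) and that of Cxcl10 1.14 (-0.58 to 2.86). The spread within the 72-hour group was wide for the members that were high in the liver and narrower for Ccl6. Without 72-hour libraries 2 and 3 these values were below 0 for Cxcl2 (-0.15), Cxcl1 (-1.64), Cxcl3 (-0.10), Cxcl10 (-0.25) and Ccl3 (-0.84), with an edgeR adjusted p of 0.870, 0.291, 0.973, 0.947 and 0.358, and none was called.

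Summed over the 5 members of each family, the CXC members reached 6.52 to 10.9 normalized CPM in spleen, 146 to 254 at 24 hours and 68.8 to 711 at 72 hours. The CC members summed to 109 to 332, 700 to 1146 and 371 to 1509 normalized CPM. In these counts, which under the limit on strand do not give the relative transcript number of different genes, the CC sum was above the CXC sum in all 12 libraries, by a ratio of 13.8 to 30.4 in spleen, 2.75 to 7.47 at 24 hours and 2.11 to 5.39 at 72 hours. The ratio in each liver library was below that in each spleen library, and the 2 liver groups overlapped. No test was made on these sums.

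**Figure D3:**
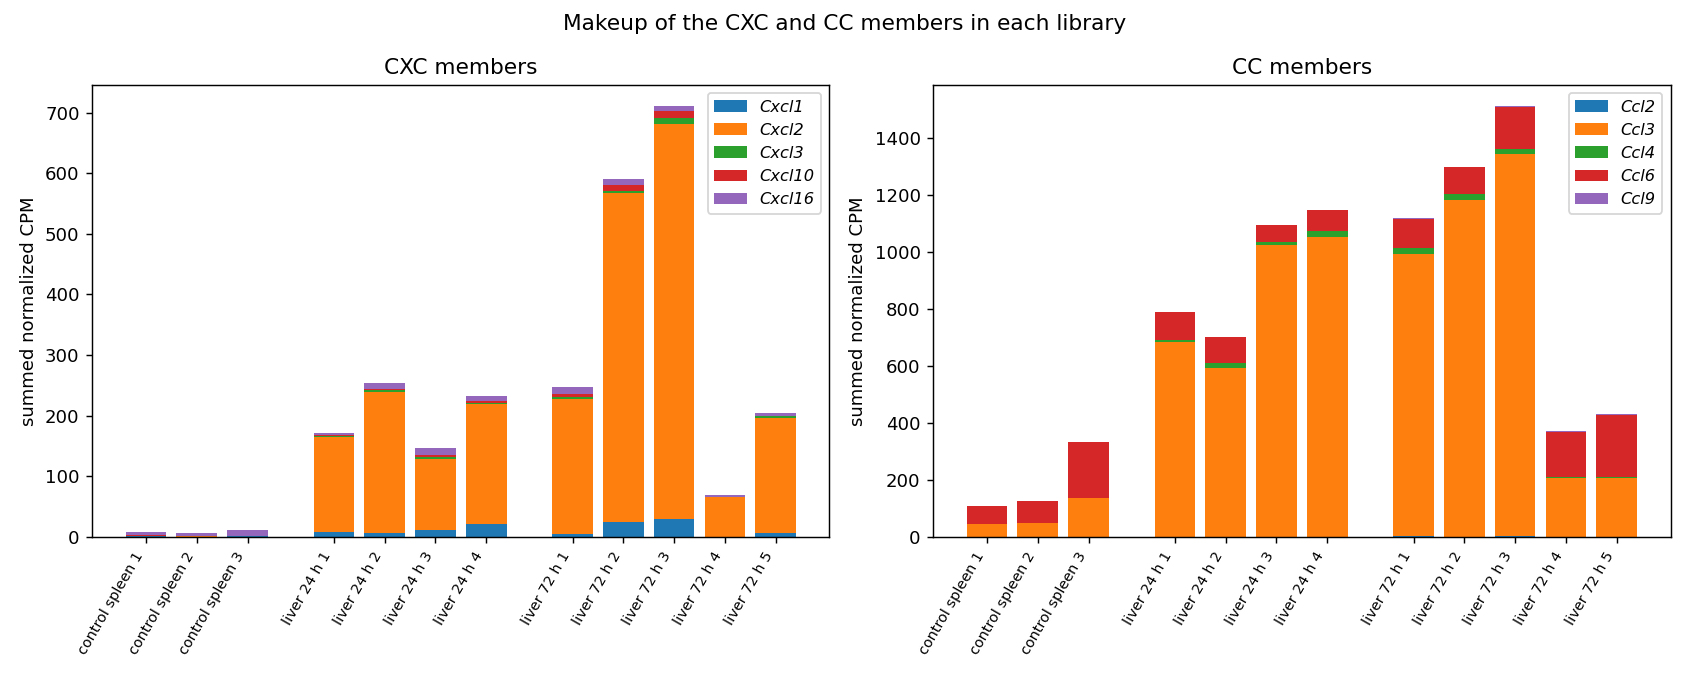
Summed normalized CPM (vertical axis, from 0) of the 5 CXC members (left) and the 5 CC members (right) in each of the 12 libraries, divided by member. Cxcl2 makes up most of each CXC bar in the liver (80.2% to 94.9%), and Ccl6 takes 42.5% and 50.4% of the CC bars of 72-hour libraries 4 and 5.

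The makeup of the families also differed between the groups. Cxcl2 was 2.94% to 11.1% of the CXC sum in spleen, 80.2% to 91.5% at 24 hours and 90.1% to 94.9% at 72 hours. In the CC family, Ccl6 was 57.7% to 61.3% of the sum in spleen and Ccl3 38.4% to 41.0%. At 24 hours Ccl3 was 84.6% to 93.5% of the CC sum. At 72 hours it was 88.8%, 91.0% and 88.9% in libraries 1, 2 and 3 and 55.6% and 47.7% in libraries 4 and 5, which were thus between spleen and the other liver libraries. In the same 2 libraries Cxcl2 was still 94.9% and 93.3% of the CXC sum.

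Per kilobase of merged exons, Ccl3 had the highest counted level of the members in the liver at both times. The order describes the deposited counts and not transcript number, since the part of the reads that was counted may differ between genes. At 24 hours the order of the mean levels in normalized CPM per kilobase was Ccl3 (1093 ± 306, SD, n = 4), Cxcl2 (85.3 ± 24.1), Ccl6 (44.9 ± 9.28), Ccl4 (21.4 ± 8.46), Cxcl1 (5.86 ± 3.52), Cxcl16 (2.87 ± 1.001), Cxcl10 (1.13 ± 0.586) and Cxcl3 (0.742 ± 0.347). The libraries of neighbours from Ccl3 down to Cxcl1 did not overlap, and those of neighbours from Cxcl1 down to Cxcl3 did. At 72 hours the order was the same (Ccl3 at 1025 ± 709, n = 5, Cxcl2 at 162 ± 121 and Ccl6 at 79.9 ± 27.6), but among the 8 highest members only Ccl6 and Ccl4 were neighbours without overlap. In spleen Ccl3 (98.6 ± 65.9, n = 3) and Ccl6 (62.8 ± 41.7) overlapped, followed without overlap by Cxcl16 (2.39 ± 0.881), with the remaining members at the floor. The merged exons of Cxcl1, Cxcl2, Cxcl3 and Cxcl10 form 1 block each that covers annotated introns. With the length of the spliced transcript, Cxcl3 was above Cxcl10 at 24 hours, Cxcl10 and Cxcl3 were above Cxcl16 at 72 hours, and the order of the 5 highest members in the liver was as before, although Ccl4 and Cxcl1 then overlapped at 24 hours.

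**Figure D4:**
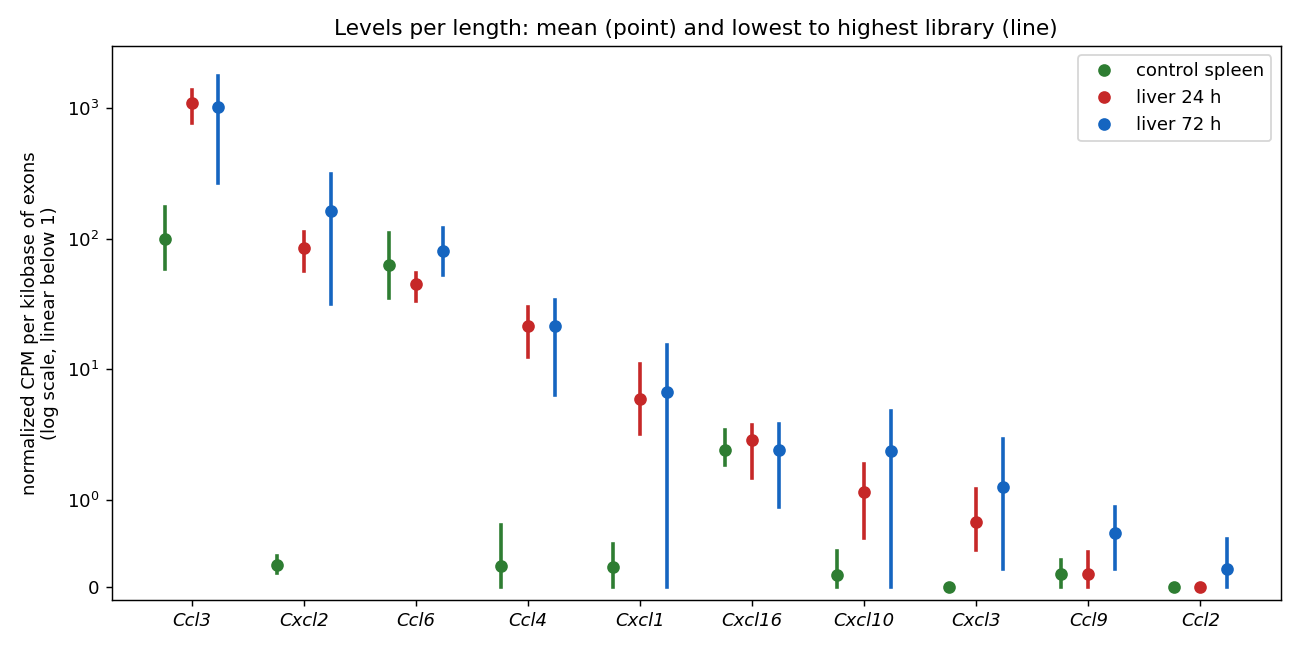
Normalized CPM per kilobase of merged exons (vertical axis, log scale above 1 and linear below) for each member, with the group mean as a point and the lowest to highest library as a line. Ccl3 has the highest mean in the 2 liver groups (1093 and 1025), and Cxcl2 goes from below 1 in spleen to 85.3 and 162.

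Of 28 other chemokines, 16 had no count in any library, 3 were tested (Ccl17, Ccl27a and Cx3cl1) and none was called by edgeR in the 3 comparisons, with 0 at an unadjusted p under 0.05. Their summed level was 2.83 to 8.75 normalized CPM over all 12 libraries. Of 11 receptors that bind chemokines or resemble such receptors, 6 were tested and 1, Ccrl2, was called higher at both times. Ccrl2, a receptor-like protein that binds chemerin, had 4, 10 and 5 counts in spleen, 33, 29, 94 and 101 at 24 hours and 105, 431, 714, 15 and 49 at 72 hours. Its log2 fold change was 4.19 at 24 hours (SE 0.85, edgeR adjusted p = 0.00283) and 5.29 at 72 hours (SE 0.85, edgeR adjusted p = 4.24e-04). Libraries 2 and 3 were highest and library 4 lowest at 72 hours, the same libraries as for Cxcl2. Cxcr2, the receptor of the ELR chemokines on neutrophils, was at 327 ± 41.8 (SD, n = 3), 318 ± 151 (n = 4) and 375 ± 81.2 (n = 5) normalized CPM and was not called (log2 fold change -0.04, edgeR adjusted p = 0.954, and 0.19, edgeR adjusted p = 0.826). Ccr1, the receptor of Ccl3, Ccl6 and Ccl9, was at 73.3 ± 7.99, 61.2 ± 16.2 and 103 ± 13.2 normalized CPM and was not called. Neither Cxcr2 nor Ccr1 was chosen by a call.

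The genes most like Cxcl2 over the 12 libraries, by the mean absolute difference of centred log2 CPM, were Ptgs2 (0.98), B430119L08Rik (1.07), Gm14023 (1.12), Kntc1 (1.12) and Plk3 (1.17). Those most like Ccl3 were Gm20412 (0.31), Gm15395 (0.32), Mllt6 (0.34), Gm28289 (0.35) and E030042O20Rik (0.38). Of these 10 genes, 6 share exon bases with a gene on the other strand, among them Gm14023 with Il1a and Plk3 with Tctex1d4. Of all 12488 genes tested, 7485 were annotated as sharing none. Ptgs2, which encodes cyclooxygenase-2 and shares none, had 12, 6 and 12 counts in spleen, 73, 62, 136 and 204 at 24 hours and 478, 1463, 2388, 227 and 301 at 72 hours. Of the other members, Ccl4 was the most like both, with a difference of 1.34 from Cxcl2 and 0.53 from Ccl3. The libraries differ in depth and these values are a description.

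The summed marker counts of neutrophils exceeded those of each other cell type in every library. The lists hold different genes and differ in length, so this order is not a measure of purity. All 10 neutrophil markers were tested, with a summed level of 1909 to 7525 normalized CPM in spleen, 1168 to 2773 at 24 hours and 2118 to 2802 at 72 hours. Of these markers 3 were called lower at 24 hours and 5 at 72 hours. Spleen library 3 was the lowest of its group and also the highest for Ccl3, Ccl6 and Cxcl16. Of 12 macrophage and monocyte markers, 3 (C1qa, Clec4f and Ms4a7) were at 0 in all libraries and 5 were tested. Of these 5, 1 (Ly6c2) was called lower at both times, and 2 (Ly6c2 and Csf1r) had an unadjusted p under 0.05 at each time. Csf1r, the receptor of the macrophage growth factor M-CSF, had log2 fold changes of 0.61 and 0.56 and was not called (edgeR adjusted p = 0.122 and 0.208). The summed level of the 12 markers was 127 to 162 in spleen, 146 to 208 at 24 hours and 129 to 192 at 72 hours. The 8 hepatocyte markers summed to 2.32 to 6.11, 14.9 to 19.8 and 3.24 to 25.4 normalized CPM. Of these 8, 3 were tested, and Apoa2 was called higher at 24 hours (log2 fold change 2.07, edgeR adjusted p = 0.00888). At 72 hours 2 of the 3, Alb and Fgb, had an unadjusted edgeR p under 0.05. Their log2 fold changes were 4.20 and 4.88, and neither was called (edgeR adjusted p = 0.119 and 0.117). Alb, which encodes albumin, had 13 and 33 counts in 72-hour libraries 2 and 3 and at most 2 in the other 10. These 2 libraries were also the highest for Cxcl1, Cxcl2, Cxcl3, Cxcl10 and Ccl3, and the part of hepatocyte RNA or of the different share of unaligned reads in these values was not tested. Without them Cxcl2, Ccl3 and Ccl4 were still called higher at 72 hours. Only 4 of 6 endothelial, 1 of 4 B cell, 1 of 6 T and natural killer cell and 2 of 4 platelet markers passed the filter on low counts. Those tested gave 0 edgeR calls and 0 at an unadjusted p under 0.05, and the others could not be called. Of 5 stellate cell and fibroblast markers, 4 were at 0 in every group and 0 were tested.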

How the data were processed

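Neutrophil RNA was sequenced in 12 libraries (3 control spleen, 4 of 24-hour and 5 of 72-hour liver), grouped by the titles in the labels. The authors aligned the reads to GRCm38 with STAR 2.7.9a (submitters' processing notes) and counted them per gene with HTSeq-count. The deposited table holds these raw counts for 48709 genes, of which 48349 matched GENCODE M21, and 5 summary lines that were left out.

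Counts were tested with edgeR 4.0.16 in R 4.3.3 (TMM, quasi-likelihood test, 1 fit of 3 groups) on 12488 genes with over 1 CPM in at least 3 libraries, with Benjamini-Hochberg adjustment over all of them. A call needed an adjusted p below 0.05 with a log2 fold change of 0.5 or more in size. A group with at most 3 counts in every library was at the floor. The members and gene lists were chosen with earlier results of these data known, and no list was tested. Named genes were the members, listed chemokines and receptors that were called, the 5 genes most like Cxcl2 and Ccl3, and genes sharing opposite-strand exons. Cxcr2, Ccr1, the tested chemokines and the marker genes were added for their role, after their values had been seen. Depth sets the floor, and the exact intervals of the ratios of pooled counts cover counting error only. The intervals of log2 fold changes come from the edgeR fit and also include the spread between libraries. Alternatives were DESeq2 1.42.0, limma-voom (limma 3.58.1), other scalings and filters, fits of 2 groups, genes without opposite-strand exons, a replicate block, other floors and leaving out each library. Leaving out 72-hour libraries 2 and 3 together was chosen after seeing the data.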

Additional observations from a re-analysis of the deposited data

How the results depend on the processing

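Cxcl2, Ccl3 and Ccl4 were called higher against spleen at both times under every alternative run, the fits without 1 library included. The number of members called at 24 hours was 5 and ranged from 3 to 5 on leaving out 1 library, with 3 without spleen library 2, when Cxcl1 and Cxcl3 were lost. At 72 hours it was 6 and ranged from 4 to 6, and was 3 without 72-hour libraries 2 and 3 together, an alternative chosen after seeing the data. limma-voom lost Cxcl1 at both times (edgeR's call at 24 hours became limma adjusted p = 0.0560) and Cxcl10 at 72 hours, and a fit of only the 2 groups compared lost Cxcl10. Between the times 0 members were called, 2 with no filter on low counts (Cxcl2, edgeR adjusted p = 0.00476, and Ccl6, 0.0338), and 0 to 1 on leaving out 1 library (Ccl6 without spleen library 3, edgeR adjusted p = 0.0480, and Cxcl2 without 72-hour library 4, 0.0346). The causes were not tested. With 1 or 5 counts in place of 3 as the floor, the bound for Cxcl2 was 380 or 76.1 at 24 hours and 722 or 144 at 72 hours. At a floor of 5 the Ccl9 bound at 72 hours was 0.814, no longer above 1, and those of Cxcl3 and Cxcl10 at 24 hours were 1.12 and 1.10. With only genes that share no exon base on the other strand, Cxcl10 and Cxcl16 were not among the genes tested. With the edgeR filter on low counts (filterByExpr), Cxcl3 and Ccl9 were not among them, and 4 and 5 members were called at 24 and 72 hours. No call of a member turned its direction.

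The replicate numbers were not taken to pair the libraries. Over 10 same-number pairs the correlation of deviations ran from -0.12 to 0.13 and 1 was over 0.1, and 2 of 12 libraries correlated best with one of their own number. With a replicate block 5, 6 and 0 members were called in the 3 comparisons, as without it.

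Cxcl3, Cxcl10, Cxcl16, Ccl9 and Ccl2 had at most 35 counts in any library, which limits their precision.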
